A study of Homo sapiens with 9 samples.

Results

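The genes described here are 9 genes by which luminal epithelial cells are recognised: the simple keratins KRT8, KRT18 and KRT19, the surface and junction proteins EPCAM, CDH1, CLDN3, CLDN4 and CLDN7, and the epithelial transcription factor ELF3. They were chosen by name, with earlier results of these data known. All 9 were among the 12165 genes measured, and they are covered by 13 of the 19724 probe sets that the annotation gives to 1 gene. They were measured in LNCaP, a human prostate cancer cell line of luminal character whose gene programme depends on androgen. Total RNA of 9 cultures was hybridised to Affymetrix arrays, with 3 arrays that the labels call biological replicates in each of 3 groups. All cultures had first spent 2 days in medium with charcoal-stripped serum, which is poor in steroid hormones. The vehicle group then received ethanol and DMSO. The androgen group received 1 nM R1881, a synthetic androgen, and DMSO. The androgen plus celastrol group received 1 nM R1881 and 1.25 µM celastrol, a plant triterpenoid, and no group with celastrol alone was analysed here. Treatment lasted 24 h by the labels of the vehicle and of the androgen plus celastrol group. For the androgen group the titles say 6 h and the descriptions 24 h, and this conflict applies to every comparison with the androgen arrays. The cultures are of 1 cell line, nothing states how they were separated, and p-values measure only the spread between these arrays.

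Keratins 8, 18 and 19 form the intermediate filaments of simple epithelia. Keratin 8 is a type II chain, keratins 18 and 19 are type I chains, and a filament is built from pairs of a type II with a type I chain. E-cadherin, encoded by CDH1, joins neighbouring cells at adherens junctions, claudins seal the tight junctions above them, and EPCAM is an adhesion molecule that is known to associate with CLDN7. ELF3 belongs to the ETS family of transcription factors and is known to regulate genes of epithelial differentiation. In the prostate, KRT8 and KRT18 mark luminal cells, while KRT5 and KRT14 mark the basal layer.

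Intensities below are linear RMA values on an arbitrary scale, 1 per probe set and array. Differences are in log2 units with the standard error of a limma fit over all genes and arrays, and adjusted p is the Benjamini-Hochberg value over 12165 genes, called below 0.05. Median intensity was 72.2 to 80.2 on the 9 arrays. Vehicle array 3 stood apart, since its log2 values differed from the means of its group with a standard deviation over genes of 0.31, against 0.12 to 0.20 on the other arrays. Of 10 genes listed as markers of luminal prostate cells, 6 were measured (KLK3, KLK2, FOLH1, HOXB13, ACP3 and TMPRSS2) and all 6 lay above the array median in each group. Of these 6, 3 rose and 1 fell with androgen (KLK3 2.15 ± 0.08, KLK2 4.98 ± 0.26, TMPRSS2 3.15 ± 0.15 and FOLH1 -0.51 ± 0.07), and 3 fell with celastrol against androgen (KLK3 -0.85 ± 0.08, KLK2 -1.51 ± 0.26 and ACP3 -2.41 ± 0.10). Of all genes, 13.0% and 16.2% were called in these comparisons. The summed intensity of the 6 markers was 24552 to 25622 with vehicle, 37806 to 39983 with androgen and 26676 to 29047 with androgen plus celastrol, and their part in the keratin results was not tested. Of 8 basal markers, 1 lay above the median with vehicle and with androgen and none with androgen plus celastrol. This was CDH3, at 169.5, 170.3 and 141.4 with vehicle. The defining basal keratin KRT5 (27.5 to 37.6) lay below it on all arrays, and KRT14 (28.6 to 60.9, and 90.1 on vehicle array 3) on all but that array. None of 8 fibroblast and none of 8 leukocyte markers lay above the median in any group. Of 5 endothelial markers, 2 lay above it with vehicle and none in the other groups.

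The 3 keratins were higher with androgen than with vehicle and lower with celastrol than with androgen alone, but they differed in how far celastrol took them back. KRT8 was measured at 1276, 1415 and 1143 on the 3 vehicle arrays, at 3702, 3953 and 4292 with androgen, and at 2356, 2660 and 2634 with androgen plus celastrol. The 3 groups did not overlap, and their order was vehicle, androgen plus celastrol, androgen. Androgen raised KRT8 by 1.64 ± 0.10 (3.12-fold, adjusted p = 1.515e-05). With celastrol it fell by 0.64 on the log2 scale from the androgen level (standard error 0.10, adjusted p = 0.003465), and it stayed 1.00 ± 0.10 above vehicle (adjusted p = 0.0001837). In bulk RNA such a change cannot be told apart from a change in the share of cells that express the gene.

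KRT18, the usual partner of keratin 8, followed the same order. Its intensity was 5849, 5648 and 4658 with vehicle, 12047, 11869 and 12546 with androgen, and 8646, 9260 and 9481 with androgen plus celastrol. The groups did not overlap here either, and vehicle array 3 was again the lowest. The rise with androgen was 1.18 ± 0.10 (2.27-fold, adjusted p = 8.133e-05), and the combined treatment stayed 0.77 ± 0.10 above vehicle (adjusted p = 0.0006204). The difference between androgen plus celastrol and androgen was -0.41 ± 0.10 (adjusted p = 0.02231). That call did not hold on leaving out androgen replicate 1, 2 or 3 (adjusted p of 0.0623 to 0.0826) or, of the androgen plus celastrol group, replicate 1 (0.0700) or 2 (0.0619), while the difference stayed between -0.43 and -0.37.

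KRT19 lay low in vehicle, at 41.9, 55.9 and 60.0, which is below the array median. With androgen it reached 206, 228 and 175, and with androgen plus celastrol it was at 67.5, 55.7 and 74.3. The androgen arrays stood above all others, while those of the other groups overlapped. Androgen raised KRT19 by 1.95 ± 0.17 (3.88-fold, adjusted p = 9.26e-05), and it fell by 1.62 on the log2 scale with celastrol (standard error 0.17, adjusted p = 0.0003479). Between androgen plus celastrol and vehicle 0.33 ± 0.17 remained (95% interval -0.05 to 0.71, adjusted p = 0.2029), which did not pass.

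**Figure D1:**
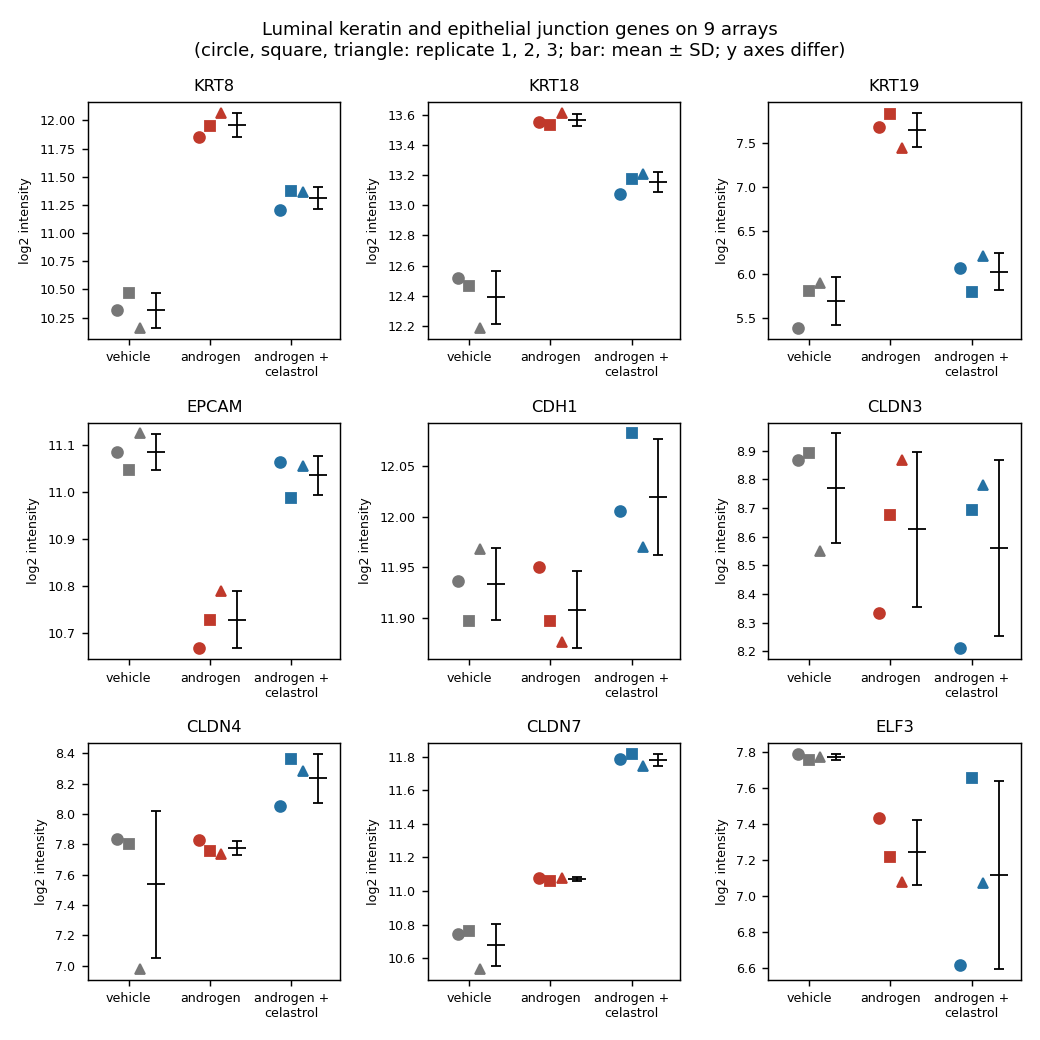
Log2 intensity of the 9 genes on each array (y axis, a different range in each panel) in the vehicle, androgen and androgen plus celastrol groups (x axis). Symbols are the 3 arrays of a group by replicate number and bars are the mean and SD. KRT8, KRT18 and KRT19 peak with androgen, CLDN7 is highest with androgen plus celastrol, and EPCAM is lowest with androgen.

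The balance between the type II chain and its type I partners was taken as the difference of log2 intensities within each array, which shows only whether probe sets changed by unequal amounts. KRT8 minus KRT18 was -2.07 ± 0.11 with vehicle, -1.61 ± 0.08 with androgen and -1.84 ± 0.04 with androgen plus celastrol (SD, n = 3). No group overlapped another, and each of the 3 comparisons gave p = 0.1 in an exact permutation test (two-sided, n = 3 per group), the smallest that 3 against 3 arrays can give. With both KRT8 probe sets averaged the differences between groups in this balance changed sign. KRT8 minus KRT19 was 4.61 ± 0.34 with vehicle, 4.30 ± 0.28 with androgen and 5.28 ± 0.26 with androgen plus celastrol (SD, n = 3). Exact permutation tests (two-sided, n = 3 per group) gave p = 0.2 for androgen against vehicle and p = 0.1 for each of the other 2 comparisons of this balance. KRT19 lay under the array median in the vehicle and the androgen plus celastrol group, so that the balance between them rests on a probe set not shown to be above background.

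KRT8 and KRT18 have many processed pseudogenes, and the probe sets behind them (209008 and 201596, both of the x_at class) are of a kind whose probes can bind several transcripts, so that both are uncertain as separate genes. The further KRT8 probe set, 214399, stayed between 25.4 and 54.5 on all arrays, under the array median, and did not follow the first. Its difference between androgen and vehicle was -0.04 ± 0.19 (adjusted p = 0.9452 over probe sets). With both KRT8 probe sets averaged, the rise with androgen became 0.80 and the difference between androgen plus celastrol and androgen -0.10 (adjusted p = 0.6388), which no longer passed. Probe set 216821, which the annotation gives to 7 genes, KRT8 and pseudogenes of it, lay between 36.4 and 50.0 and was not used.

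Nearby sequence was read for the genes that the RefSeq table of start sites (GRCh38.p14) holds, which were KRT8, CLDN3, CLDN4, CLDN7 and ELF3, with 2 windows for CLDN7. Each window runs from 250 bases before to 50 bases after an annotated start, and was searched on both strands for 6 short motifs. These were the hexamer of the androgen receptor AGAACA, the E-box CACCTG bound by SNAI and ZEB proteins, the ETS motif AGGAAG, the AP-1 motif TGANTCA, the GC box GGGCGG and the TATA box TATAAA. Of 35116 windows in the table, 14.8% held the androgen receptor hexamer, 20.6% this E-box, 33.6% the ETS motif, 7.71% the AP-1 motif, 45.0% the GC box and 11.5% the TATA box. Motif letters are in capitals, no matches overlap in the windows printed, and a match is a description of the letters. The window of KRT8 (chr12:52926420-52926719, minus strand), printed because this gene had the clearest 3-step order of levels, held none of the 6.
KRT8: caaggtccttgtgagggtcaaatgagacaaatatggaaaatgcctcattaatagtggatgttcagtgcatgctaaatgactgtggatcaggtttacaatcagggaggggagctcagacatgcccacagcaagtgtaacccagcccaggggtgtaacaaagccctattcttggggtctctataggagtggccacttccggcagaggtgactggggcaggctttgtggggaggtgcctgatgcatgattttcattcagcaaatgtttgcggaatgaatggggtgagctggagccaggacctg

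Claudins differed among themselves, and CLDN7 was the member with a rise at each step from vehicle to androgen to androgen plus celastrol. CLDN7 intensity was 1714, 1738 and 1485 with vehicle, 2165, 2135 and 2165 with androgen, and 3524, 3597 and 3424 with androgen plus celastrol. The groups did not overlap. Androgen raised CLDN7 by 0.39 ± 0.08 (1.31-fold, adjusted p = 0.01309). This call did not hold on leaving out androgen replicate 1 (0.39, adjusted p = 0.0519) or with the replicate number as a block in a fit of the vehicle and androgen arrays alone (adjusted p = 0.0550). Celastrol raised it by a further 0.71 ± 0.08 (1.63-fold, adjusted p = 0.0006411), so that androgen plus celastrol stood 1.10 ± 0.08 above vehicle (2.14-fold, adjusted p = 3.137e-05).

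CLDN4 was at 228, 223 and 126 with vehicle, at 227, 217 and 214 with androgen, and at 266, 330 and 312 with androgen plus celastrol. All androgen plus celastrol arrays lay above all others, and the low value of vehicle array 3 made the vehicle spread wide. The difference between androgen and vehicle, 0.24 ± 0.21 (95% interval -0.24 to 0.72, adjusted p = 0.5861), did not pass, and was -0.04 without vehicle replicate 3. Nor did the difference between androgen plus celastrol and androgen, 0.46 ± 0.21 (adjusted p = 0.2069). It had the same size and passed without vehicle replicate 3 (standard error 0.09, adjusted p = 0.008062), where that array no longer entered the estimate of the spread. Against vehicle, CLDN4 rose by 0.70 ± 0.21 with the combined treatment (adjusted p = 0.04269). Without vehicle replicate 3 this difference was 0.42 (adjusted p = 0.0182), and without any 1 of the androgen or the androgen plus celastrol arrays it was 0.63 to 0.79 with adjusted p of 0.0575 to 0.124, past the threshold in none of these 6 settings.

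CLDN3, whose gene neighbours CLDN4, showed no difference beyond its spread. Its probe set 203953 was at 467, 475 and 375 with vehicle, 323, 409 and 468 with androgen, and 296, 414 and 440 with androgen plus celastrol, and the groups overlapped throughout. The difference between androgen and vehicle was -0.14 ± 0.19 (95% interval -0.57 to 0.28, adjusted p = 0.7273), and that between androgen plus celastrol and androgen was -0.06 ± 0.19 (95% interval -0.49 to 0.36, adjusted p = 0.8808). The other CLDN3 probe set, 203954, was at 306, 314 and 233 with vehicle, at 353, 386 and 322 with androgen and at 254, 280 and 340 with androgen plus celastrol. It differed by 0.32 ± 0.15 between androgen and vehicle (adjusted p = 0.2698 over probe sets), the opposite sign of the first, and neither passed. With both averaged the difference was 0.09 (adjusted p = 0.7948). These intervals do not show that CLDN3 was unaffected.

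The windows of CLDN7 and CLDN4 are printed because these claudins were called higher with the combined treatment. The CLDN7 window (chr17:7262429-7262728, minus strand) held the E-box at 5 places, the GC box at 2 and the ETS motif at 1. The other CLDN7 start, upstream of it, held only the ETS motif.
CLDN7: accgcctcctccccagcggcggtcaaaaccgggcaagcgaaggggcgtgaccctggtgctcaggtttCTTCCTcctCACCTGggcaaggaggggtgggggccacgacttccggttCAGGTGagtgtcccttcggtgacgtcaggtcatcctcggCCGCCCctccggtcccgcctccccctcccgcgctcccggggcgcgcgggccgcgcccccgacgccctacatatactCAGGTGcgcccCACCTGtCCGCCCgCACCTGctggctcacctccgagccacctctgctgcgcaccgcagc
The CLDN4 window (chr7:73830746-73831045, plus strand) held the AP-1 motif at 2 places and the ETS motif and the GC box at 1 each.
CLDN4: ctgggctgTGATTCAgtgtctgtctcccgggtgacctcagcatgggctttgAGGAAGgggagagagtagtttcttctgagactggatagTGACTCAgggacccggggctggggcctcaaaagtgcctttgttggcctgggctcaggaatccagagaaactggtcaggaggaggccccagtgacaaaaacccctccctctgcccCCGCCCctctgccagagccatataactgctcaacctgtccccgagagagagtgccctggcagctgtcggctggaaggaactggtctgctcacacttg

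EPCAM moved opposite to the keratins, by a small amount. It was at 2171, 2116 and 2233 with vehicle, at 1626, 1694 and 1770 with androgen, and at 2140, 2031 and 2129 with androgen plus celastrol. The androgen arrays lay below all others, and the other 2 groups overlapped. EPCAM fell by 0.36 on the log2 scale with androgen (standard error 0.07, adjusted p = 0.0107) and rose by 0.31 ± 0.07 with celastrol (adjusted p = 0.01956), which left -0.05 ± 0.07 against vehicle (95% interval -0.21 to 0.11, adjusted p = 0.6592). Leaving out androgen replicate 1 ended the call against vehicle (-0.33, adjusted p = 0.0528). The rise with celastrol missed the threshold on leaving out androgen replicate 1 (adjusted p = 0.0813) or 2 (0.0673), or, among the combined arrays, replicate 1 (0.0532) or 3 (0.0602), at 0.28 to 0.31. Both were lost with each array's median subtracted (adjusted p = 0.1402 and 0.1356). EPCAM is known to bind CLDN7 at the membrane. Between vehicle and androgen these genes were called in opposite directions, and neither call held without androgen replicate 1. For celastrol against androgen both were called higher (0.31 and 0.71).

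CDH1 was nearly level. Its probe set 201131 gave 3919, 3813 and 4006 with vehicle, 3957, 3814 and 3760 with androgen, and 4112, 4336 and 4012 with androgen plus celastrol. The androgen plus celastrol arrays lay just above the others, which overlapped each other. The difference between androgen and vehicle was -0.03 ± 0.07 (95% interval -0.19 to 0.14, adjusted p = 0.8822) and that between androgen plus celastrol and androgen 0.11 ± 0.07 (95% interval -0.05 to 0.27, adjusted p = 0.386). The interval thus excluded a change of CDH1 as large as those of KRT8, KRT18 or KRT19 with androgen. The other CDH1 probe set, 201130, ranged from 600 to 940 over the 9 arrays with all groups overlapping, and differed by -0.13 ± 0.17 between androgen and vehicle (adjusted p = 0.7523 over probe sets).

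ELF3 was highest with vehicle. Its probe set 210827 gave 221, 216 and 218 with vehicle, 173, 148 and 135 with androgen, and 98.1, 202 and 134 with androgen plus celastrol. All treated arrays lay below all vehicle arrays, and androgen plus celastrol array 2 lay close to them. No ELF3 difference passed: -0.53 ± 0.23 for androgen against vehicle (adjusted p = 0.1991), -0.13 ± 0.23 for androgen plus celastrol against androgen (adjusted p = 0.7909) and -0.66 ± 0.23 for androgen plus celastrol against vehicle (adjusted p = 0.06889). The last was -0.93 and passed without androgen plus celastrol replicate 2 (adjusted p = 0.00562), and -0.41 without androgen plus celastrol replicate 1. In a fit of the vehicle and androgen arrays alone their difference passed without (adjusted p = 0.0260) and with the replicate block (0.0304). The other ELF3 probe set, 201510, lay between 41.0 and 63.6, under the array median, with the groups overlapping. The ELF3 window (chr1:202010337-202010636, plus strand), printed because ELF3 is the regulator among the 9 genes, held 1 TATA box (-34 to -29 from the start) and 1 E-box.
ELF3: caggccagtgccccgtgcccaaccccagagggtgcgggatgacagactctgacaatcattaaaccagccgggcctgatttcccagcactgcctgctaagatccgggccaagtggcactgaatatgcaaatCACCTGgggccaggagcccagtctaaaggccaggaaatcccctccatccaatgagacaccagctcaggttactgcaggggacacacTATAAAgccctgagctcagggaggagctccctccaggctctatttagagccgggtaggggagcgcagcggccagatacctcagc

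**Figure D2:**
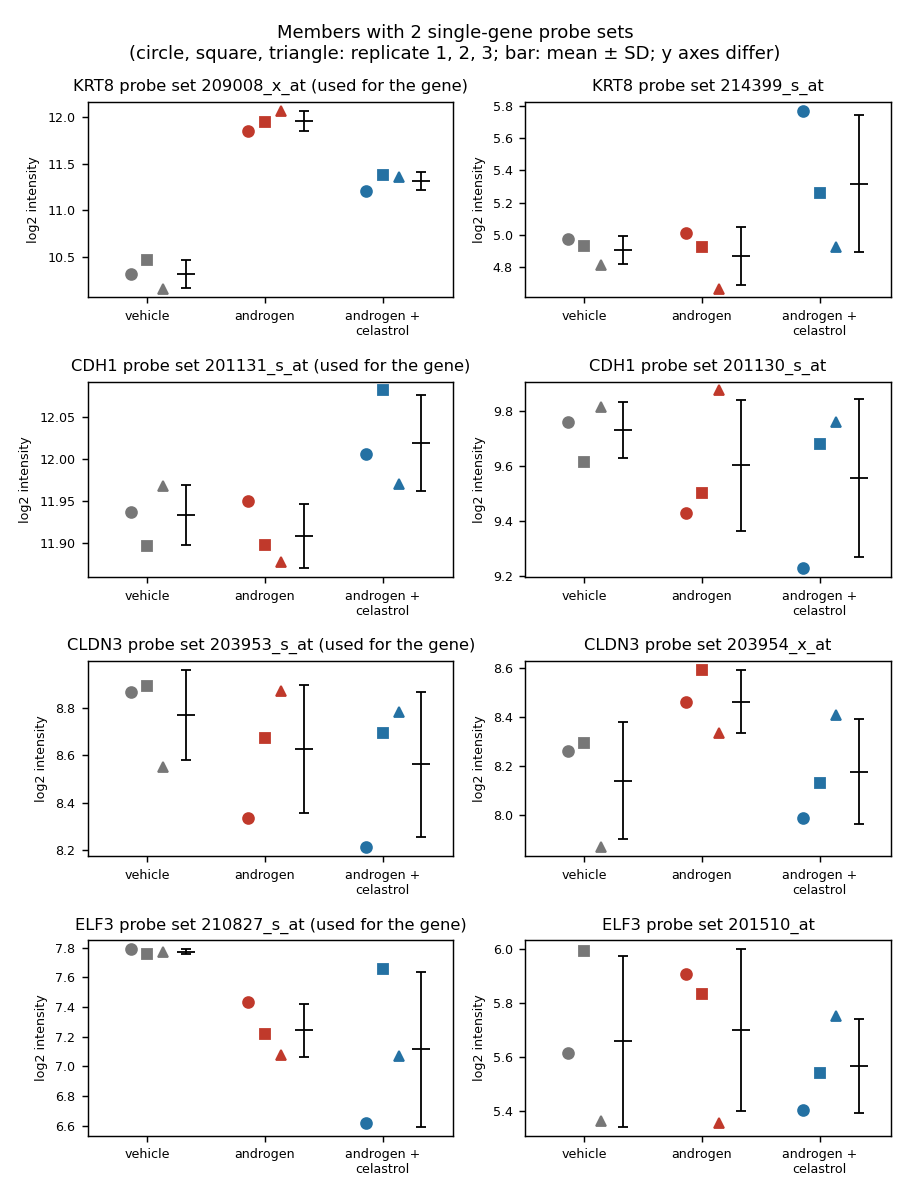
Log2 intensity (y axis, a different range in each panel) of both single-gene probe sets of KRT8, CDH1, CLDN3 and ELF3 on each array, by group (x axis). Left panels are the probe sets used for the gene, symbols are replicates 1 to 3 and bars are the mean and SD. The further probe sets of KRT8 and ELF3 lie under the array median and do not follow the first.

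Over the 9 genes, androgen changed 5 against vehicle, where 13.0% of all genes were called. KRT8, KRT18, KRT19 and CLDN7 rose and EPCAM fell, and the arrays of 6 members did not overlap, where 28.3% of all genes did not. Celastrol on top of androgen also changed 5, where 16.2% of all genes were called. Here EPCAM and CLDN7 rose and KRT8, KRT18 and KRT19 fell, and 7 members did not overlap, where 35.9% of all genes did not. Between androgen plus celastrol and vehicle 4 were called, where 23.3% of all genes were. All of these were rises, of KRT8, KRT18, CLDN4 and CLDN7, and 6 members did not overlap, where 37.2% of all genes did not. Counted over the 13 single-gene probe sets, 5, 5 and 4 were called in the same order of comparisons, where 10.9%, 13.2% and 19.8% of all single-gene probe sets were. At an unadjusted limma p under 0.05, 6 members differed between androgen and vehicle, where 2846 of 12165 genes did. Between androgen plus celastrol and androgen 5 members did, where 3263 genes did, and between androgen plus celastrol and vehicle 5, where 4197 did. ELF3 was the added member in both comparisons with vehicle. Without androgen replicate 1 the count of members called for androgen was 3, where 615 of all genes rose and 522 fell. For celastrol it was 3 without androgen replicate 1, where 803 of all genes rose and 550 fell. It was also 3 without androgen replicate 2 (711 and 595) or replicate 1 of the combined treatment (942 and 659). Without vehicle replicate 3 it was 6 (1512 and 1155). In the main fit 1583 and 1976 of 12165 genes were called for androgen and for celastrol. The median difference of the members was 0.24 for androgen against vehicle and -0.06 for celastrol against androgen, beside -0.04 and 0.02 over all genes. The 3 comparisons share arrays, so that their values are not independent of each other. The members and the related lists were chosen with earlier results of these data known. Their shares called are therefore no test against those of all genes.

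**Figure D3:**
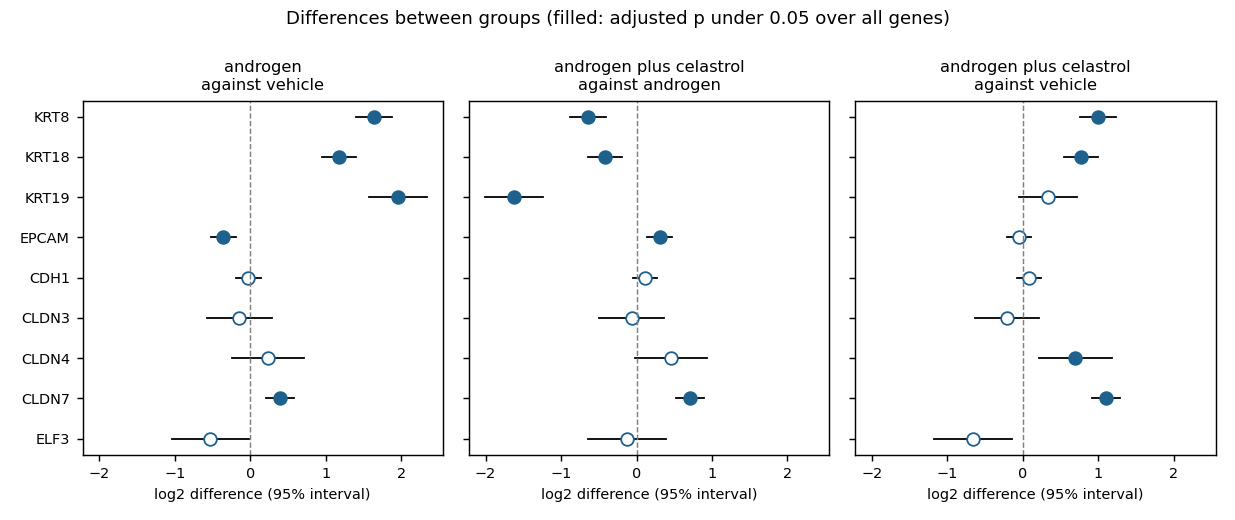
Log2 difference (x axis) with its 95% interval for each of the 9 genes (y axis) in the 3 comparisons. Filled points passed an adjusted p of 0.05 over all genes. The keratins lie right of 0 against vehicle and left of 0 for celastrol against androgen, and CLDN7 lies right of 0 in all 3 panels.

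The genes whose pattern over the 9 arrays was most like that of a member were found by the root mean square difference of log2 values centred on each gene's mean. For KRT8 these were ABCC4, which encodes an organic anion exporter (0.12), and PLPP1 (0.13). For KRT18 they were ECI2 (0.07) and NTAQ1 (0.08). For KRT19 they were the transcription factor SPDEF (0.17) and the potassium channel gene KCNMA1 (0.22). For CLDN7 they were the exonuclease gene TREX1 and SNAPC5 (0.05 each), for CLDN4 ADRM1 and HSD17B8 (0.07 each), and for EPCAM TPGS2 (0.04) and PPP6C (0.05). The difference between KRT8 and KRT18 themselves was 0.20, and that between KRT8 and KRT19 0.47. A member with small changes has close neighbours for that reason alone, so that these distances are not comparable between members.

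Of 12 other keratins measured of 15 listed, none was called for androgen against vehicle in the limma fit, where 13.0% of all genes were. Apart from KRT10, these lay under the array median on every array, except KRT23 at 80.6 on vehicle array 3. They were not shown to be above background, so the lack of calls does not mark the rises of KRT8, KRT18 and KRT19 as particular. For celastrol against androgen, where 16.2% of all genes were called, only KRT10, a type I keratin of stratified epithelia, passed, by 0.60 ± 0.08 (adjusted p = 0.001144). Its intensity was 1387, 1446 and 1356 with vehicle, 1472, 1466 and 1579 with androgen, and 2209, 2192 and 2431 with androgen plus celastrol, which was 0.70 ± 0.08 above vehicle (adjusted p = 0.0002535). Of 8 basal epithelial markers measured of 13 listed, only CDH3, which encodes P-cadherin, was called in any of the 3 comparisons, where 13.0%, 16.2% and 23.3% of all genes were. It changed by -0.77 ± 0.20 with androgen (adjusted p = 0.03589, and 0.0542 to 0.125 on leaving out vehicle replicate 1 or 2, androgen replicate 1 or 3, or replicate 3 of the combined treatment) and by -1.16 ± 0.20 between androgen plus celastrol and vehicle (adjusted p = 0.002942). The summed intensity of the 8 basal markers was 423 to 477 with vehicle, 357 to 382 with androgen and 294 to 348 with androgen plus celastrol. Its part in the keratin results was not tested.

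Of 13 other tight junction genes measured of 20 listed, 2 rose with androgen and none fell, where 13.0% of all genes were called. CLDN8, a further claudin, rose by 1.77 ± 0.27 (adjusted p = 0.002623), from 165, 187 and 80.3 to 494, 423 and 468, with no overlap. The scaffold TJP1 rose by 0.29 ± 0.07 (adjusted p = 0.03042), a call that ended on leaving out any 1 androgen array, vehicle replicate 1 or 2, or replicate 2 of the combined treatment (0.0520 to 0.118) and with the replicate block (0.0569). With celastrol against androgen, where 16.2% of all genes were called, none rose and 2 fell. These were the adhesion receptor CXADR, by 0.61, and the polarity gene PALS1, by 0.53 on the log2 scale (adjusted p = 0.006417 and 0.007634). Without vehicle replicate 3, 1 rose and 5 fell, where 1512 of all genes rose and 1155 fell. Between androgen plus celastrol and vehicle, where 23.3% of all genes were called, CLDN8 stayed 1.15 ± 0.27 higher (adjusted p = 0.0147, and 0.0539 without androgen plus celastrol replicate 3). The scaffold TJP3 (-1.26 ± 0.29, adjusted p = 0.01211), CXADR (-0.58 ± 0.11, adjusted p = 0.005214) and MPDZ (-0.39 ± 0.09, adjusted p = 0.01382) fell. TJP3 was at 105, 105 and 229 with vehicle and at 50.8, 53.6 and 67.4 with androgen plus celastrol, with vehicle array 3 the highest, and its difference was -0.72 with its probe sets averaged (0.00485).

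Of 11 adherens junction partners measured of 12 listed, 1 rose and 2 fell with androgen, where 13.0% of all genes were called. PKP4, an armadillo protein of junctions, changed by -0.82 ± 0.10 (adjusted p = 0.0005472). CTNNAL1 changed by -0.28 ± 0.07 (adjusted p = 0.03194) and vinculin VCL by 0.48 ± 0.12 (adjusted p = 0.02423). The VCL call ended on leaving out vehicle replicate 1 or 2 or any 1 androgen array (0.0511 to 0.0921), and with its probe sets averaged the difference was 0.22 (0.297). The CTNNAL1 call ended on leaving out any of those arrays or replicate 2 of the combined treatment (0.0540 to 0.121) and with the replicate block (0.0772). With celastrol against androgen, where 16.2% of all genes were called, CTNNAL1 rose by 0.80 ± 0.07 (adjusted p = 0.000147) and PKP4 by 0.40 ± 0.10 (adjusted p = 0.02323). The latter ended on leaving out androgen replicate 2 or 3 or any 1 array of the combined treatment (0.0543 to 0.0826), and was 0.25 with its probe sets averaged (0.166). The catenin genes CTNNB1 (-0.20 ± 0.10) and CTNND1 (-0.08 ± 0.09) were not called for androgen, nor was JUP (-0.28 ± 0.13), which encodes plakoglobin. Between androgen plus celastrol and vehicle, where 23.3% of all genes were called, 2 rose, CTNNAL1 (0.52 ± 0.07) and CTNNA1 (0.31 ± 0.07, but 0.14 and not called with its probe sets averaged), and 2 fell, JUP (-0.56 ± 0.13), which encodes plakoglobin, and PKP4 (-0.43 ± 0.10).

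Of 11 desmosome genes, 4 fell and none rose with celastrol against androgen, where 16.2% of all genes were called, and the list median was -0.27 against 0.02 over all genes. DSP, which encodes desmoplakin, the protein that anchors keratin filaments to desmosomes, was at 2263, 2290 and 2714 with vehicle, 2390, 2330 and 2541 with androgen, and 1487, 1489 and 1449 with androgen plus celastrol. It fell by 0.71 on the log2 scale (standard error 0.09, adjusted p = 0.0009631). PPL (-0.47 ± 0.12, adjusted p = 0.03284), DSG2 (-0.31 ± 0.07, adjusted p = 0.01685) and PERP (-0.29 ± 0.08, adjusted p = 0.04291) fell by less. The count that fell was 1 on leaving out androgen replicate 1 or 3 or replicate 2 of the combined treatment, and 2 without vehicle replicate 1, androgen replicate 2 or replicate 3 of the combined treatment. Over all genes 550 to 613 fell in the former settings and 595 to 774 in the latter. With androgen against vehicle, where 13.0% of all genes were called, only PERP passed, by 0.30 ± 0.08 (adjusted p = 0.04203). This call ended without vehicle replicate 1 or 2, any 1 androgen array or replicate 1 or 3 of the combined treatment (0.0524 to 0.141) and with the replicate block (0.0604). Between androgen plus celastrol and vehicle 3 of the 11 fell, where 23.3% of all genes were called. These were DSP (-0.71 ± 0.09), PPL (-0.42 ± 0.12) and DSC2 (-0.32 ± 0.10), and without any 1 array of the 9 this count was 1 or 2. DSC2 was at -0.55 with its probe sets averaged.

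Among 16 epithelial surface proteins and protease regulators measured of 19 listed, 4 fell and none rose with celastrol against androgen, where 16.2% of all genes were called. The list median was -0.05, against 0.02 over all genes. Leaving out 1 array gave 2 to 4 falls, and 1 rise without replicate 1 of the combined treatment. ERBB3, a receptor of the EGF receptor family, fell by 0.73 and the tetraspanin CD9 by 0.60 on the log2 scale (adjusted p = 0.0003747 and 0.002624), and the ERBB3 difference was -0.37 with its probe sets averaged (0.0130). CD46 fell by 0.38 (adjusted p = 0.02228) and the membrane protease ST14 by 0.32 (adjusted p = 0.035), and both calls ended on leaving out any 1 androgen array or replicate 1 or 2 of the combined treatment (adjusted p of 0.0527 to 0.122), ST14 also without vehicle replicate 2. For androgen against vehicle, where 13.0% of all genes were called, CD9 rose by 0.39 ± 0.09 (adjusted p = 0.02357, and 0.0546 with the replicate block). TSPAN8, at 27.3 to 38.3 under the median of every array and not shown to be above background, differed by -0.33 ± 0.09 (adjusted p = 0.04391). Without androgen replicate 2 or 3 neither of them passed (0.0999 and 0.0765 in this order for CD9), and TSPAN8 was also lost without any 1 vehicle array or replicate 1 or 2 of the combined treatment (0.0510 to 0.167) and with the block (0.0562). Compared with vehicle, where 23.3% of all genes were called, 3 fell with the combined treatment, ERBB3 (-0.96 ± 0.08), AP1M2 (-0.37 ± 0.08) and TSPAN8 (-0.31 ± 0.09). The TSPAN8 call ended on leaving out any 1 vehicle array, androgen replicate 3, or replicate 2 or 3 of the combined treatment (adjusted p of 0.0502 to 0.112).

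**Figure D4:**
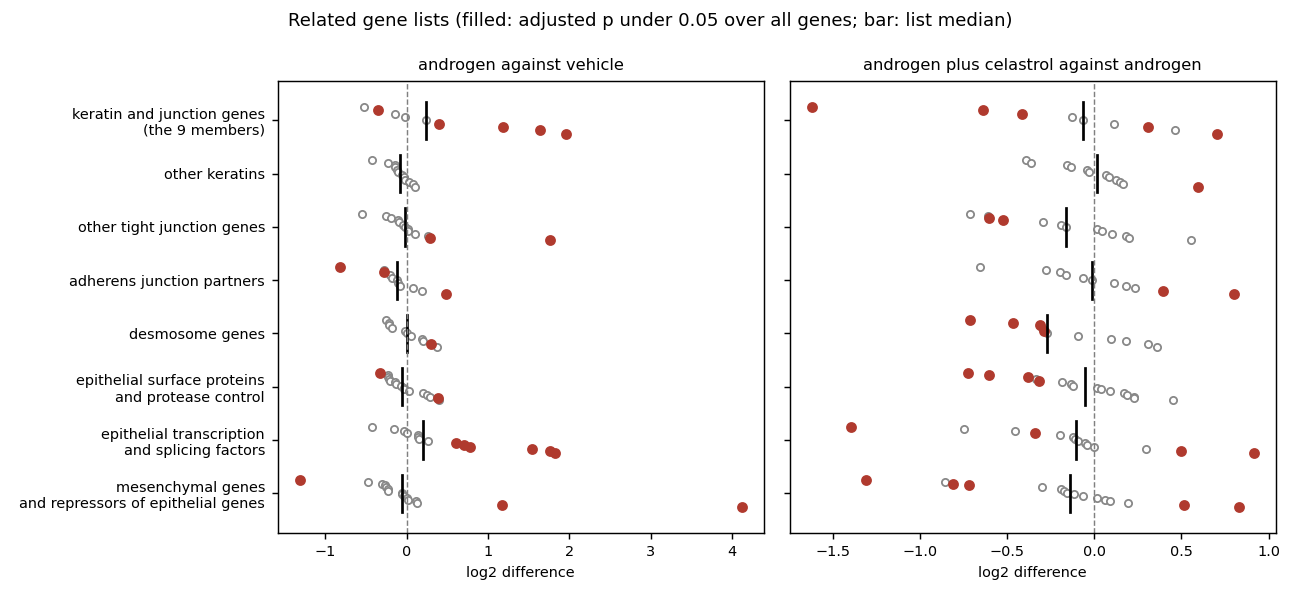
Log2 difference (x axis) of every measured gene in the 9 members and 7 related lists (y axis), for androgen against vehicle and for androgen plus celastrol against androgen. Filled points passed an adjusted p of 0.05 over all genes and bars are list medians. The rises with androgen among keratins are those of the members, while the other keratins except KRT10 were not shown to be above background. The desmosome median lies left of 0 with celastrol.

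Of 14 other epithelial transcription and splicing factors measured of 16 listed, 6 rose and none fell with androgen, where 13.0% of all genes were called. The list median was 0.20, against -0.04 over all genes. SPDEF, an ETS factor of luminal prostate cells, was at 523, 554 and 503 with vehicle, 1892, 2065 and 1667 with androgen, and 702, 658 and 768 with androgen plus celastrol. It rose by 1.83 ± 0.10 with androgen (adjusted p = 7.502e-06) and fell by 1.40 on the log2 scale with celastrol (adjusted p = 7.001e-05), and with its probe sets averaged these differences were 1.01 and -0.77. KLF5 rose by 1.76 ± 0.26 (adjusted p = 0.001947). With celastrol against androgen, where 16.2% of all genes were called, the splicing factor ESRP1 rose by 0.91 ± 0.08 (adjusted p = 0.0001489) and the ETS factor ELF1 by 0.50 ± 0.08 (adjusted p = 0.0032). ELF5 lay at 41.4 to 59.1, under the median of every array, and was not shown to be above background. It differed by -0.34 ± 0.09 (adjusted p = 0.03489), a call lost without vehicle replicate 1 or any 1 of the androgen or androgen plus celastrol arrays (0.0545 to 0.120), and -0.22 with its probe sets averaged (0.110). With the combined treatment 8 of the 14 rose against vehicle and 2 fell, where 23.3% of all genes were called. Leaving out 1 array gave 6 to 8 rises. The largest were those of KLF5 (1.63 ± 0.26) and ESRP1 (1.06 ± 0.08). SPDEF rose by 0.43 ± 0.10, but by 0.24 and uncalled with its probe sets averaged (adjusted p = 0.23). The KLF4 rise was lost without vehicle replicate 2, androgen replicate 2 or 3, or replicate 2 or 3 of the combined treatment (0.0504 to 0.109). The falls were those of GATA2 (-0.62 ± 0.16) and ELF5 (-0.34 ± 0.09), and neither was called on leaving out vehicle replicate 1 or replicate 1 or 2 of the combined treatment (adjusted p of 0.0556 to 0.0870). ELF5 was also lost without vehicle replicate 3 or replicate 3 of the combined treatment, and GATA2 without vehicle replicate 2.

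Of 16 mesenchymal genes and repressors of epithelial genes, 2 rose and 1 fell with androgen, where 13.0% of all genes were called. SNAI2, a zinc finger protein known to repress CDH1 through E-boxes, was at 48.5, 47.3 and 27.6 with vehicle, 706, 692 and 676 with androgen, and 247, 281 and 311 with androgen plus celastrol, a rise of 4.12 ± 0.20 with androgen (adjusted p = 4.148e-06), while CDH1 stayed at the levels given above. TWIST1 rose by 1.17 ± 0.11 (adjusted p = 0.0001624), and FN1, which encodes the matrix protein fibronectin, changed by -1.31 ± 0.09 (adjusted p = 2.981e-05). Without vehicle replicate 3 a second gene fell in this list. With celastrol against androgen, where 16.2% of all genes were called, FN1 rose by 0.83 ± 0.09 (adjusted p = 0.0005222) and ITGA5 by 0.51 ± 0.14 (adjusted p = 0.0374). The ITGA5 call ended on leaving out vehicle replicate 1 or 2, androgen replicate 1 or 2, or replicate 1 or 3 of the combined treatment (0.0505 to 0.138). SNAI2, TCF3 and TWIST1 fell, by 1.31, 0.81 and 0.72 on the log2 scale (adjusted p = 0.0027, 0.0007541 and 0.002742), and the TCF3 difference was -0.10 with its probe sets averaged (adjusted p = 0.661). VIM, the mesenchymal intermediate filament gene, differed by -0.47 ± 0.28 and -0.86 ± 0.28 in these 2 comparisons, neither called. Against vehicle, the combined treatment left SNAI2 (2.80 ± 0.20) and TWIST1 (0.45 ± 0.11) higher and VIM (-1.33 ± 0.28), TCF3 (-1.08 ± 0.10) and FN1 (-0.48 ± 0.09) lower. All 5 were called, where 23.3% of all genes were. TCF3 was at -0.17 here with its probe sets averaged, and the TWIST1 call ended on leaving out vehicle replicate 1 or 2 or replicate 3 of the combined treatment (adjusted p of 0.0573 to 0.0621).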

How the data were processed

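The authors deposited 1 intensity per probe set and array on a linear scale, made with RMA per the submitters' processing notes; no source used here gives its version or probe definitions. RMA is meant to bring arrays to a common distribution, which removes differences in total RNA. The upper quartile of the deposited values was still 332.5 on vehicle array 3, against 377.4 to 408.7 on the other arrays. The range of the values marks them as linear, and they were put on the log2 scale here with pseudocount 0. Array replicates were 3 per group, which limits the precision.

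The annotation table gives 1 gene for 19724 of 22215 probe sets, several for 568 and none for 1923, and symbols were updated through gene IDs. Each of 12165 genes was represented by its single-gene probe set with the highest mean. A single limma model (version 3.58.1, R 4.3.3) covered the 9 arrays, with moderated variances, no intensity trend and no low-value filter. Benjamini-Hochberg adjustment ran over all genes, with 0.05 as threshold. A fit with every single-gene probe set as a row gave the probe-set values. The code was tested on simulated data. Detection calls and scan dates were not used here.

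Members and gene lists were chosen with earlier results of these data known. Genes named are the members, up to 2 rises and 2 falls per related list and comparison among those called, the luminal prostate markers, and the 2 genes nearest in pattern to each called member. Genes named so that a count of 5 or fewer is complete (MPDZ, DSG2, PERP, DSC2, CD46, ST14), VIM, CTNNB1, CTNND1 and JUP for a comparison without a call, and KRT5, KRT14 and KRT23 were named after their values were seen. The fibroblast, endothelial and leukocyte lists gave 1, 1 and 0 genes lower and none higher with androgen, and 1, 0 and 0 higher and none lower with celastrol against androgen. The first were COL3A1 (-0.43) and VWF (-1.13), which were also called lower between androgen plus celastrol and vehicle (-0.35 and -1.28), the only calls of these lists there. The last was COL1A1 (0.42, adjusted p = 0.04464), which was not called on leaving out vehicle replicate 2 or any 1 of the androgen or androgen plus celastrol arrays, nor with the replicate block (0.0735). COL3A1 was not called with its probe sets averaged (0.270 and 0.419), with androgen on leaving out vehicle replicate 1 or androgen replicate 2 or 3, or against vehicle on leaving out vehicle replicate 1 or 2 or replicate 1 or 3 of the combined treatment. List genes not among the 12165 were not analysed here.

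The labels number the replicates 1 to 3. Between vehicle and androgen, arrays of the same number deviated together (correlations of 0.40, 0.37 and 0.63 over genes). Androgen array 1 with vehicle array 2 (0.41) and androgen array 2 with vehicle array 1 (0.30) did so too, so that these correlations do not show how numbers 1 and 2 pair. Androgen array 3 went against vehicle arrays 1 (-0.51) and 2 (-0.57). For each gene the deviations within a group of 3 arrays cancel out, so that these correlations are not independent of each other. The main fit holds no pairing. For that comparison, values with the replicate block stand beside a result where they change the call. The closing section gives them for the others. Alternatives were other normalizations (quantile, cyclic loess, array medians), a pseudocount of 16, leaving out genes below the 25th percentile, averaged or separate probe sets, a trended prior, the compared groups alone, the replicate block and each array left out. Sequences are from RefSeq, with 5 of the 9 members matched.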

Additional observations from a re-analysis of the deposited data

How the results depend on the processing

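Of 180 values of member differences under an alternative per comparison, 174 kept their call or lack of one for androgen against vehicle, 165 for celastrol against androgen and 167 for androgen plus celastrol against vehicle, and no called difference changed sign. Leaving out 1 array gave 3 to 5 members called for androgen against vehicle, 3 to 6 for celastrol against androgen and 3 to 4 for androgen plus celastrol against vehicle. The calls over all genes also moved with the array left out. For celastrol against androgen they ranged from 711 rises and 595 falls without androgen replicate 2 to 1512 and 1155 without vehicle replicate 3. With the replicate block 5 of 9 members were called for androgen, where 789 of 12165 genes rose and 617 fell. For celastrol against androgen 3 probe sets of the members were called with it, against 5, and over all genes 979 rose and 737 fell. The KRT18 call for celastrol against androgen had adjusted p = 0.0534 with the block, and the CLDN4 call against vehicle 0.0509. Among the related genes the block likewise ended the calls of PERP (0.0599), ELF5 (0.0546), ST14 (0.0713) and ITGA5 (0.0561) for celastrol against androgen and of DSC2 (0.0738) and COL3A1 (0.0545) for the combined treatment against vehicle. With the block in a fit of the compared groups alone, EPCAM had 0.0869 for celastrol against androgen and CLDN4 0.156 for the combined treatment against vehicle. Same-numbered arrays correlated at -0.09, 0.21 and -0.19 for androgen plus celastrol and androgen, and at -0.26, 0.11 and -0.29 for androgen plus celastrol and vehicle. These values do not show pairing by number, and they are not independent of each other. With averaged probe sets, the KRT8 minus KRT18 differences reversed to -0.38, 0.32 and -0.0622 for androgen against vehicle, celastrol against androgen and the combined treatment against vehicle, and the KRT8 minus KRT19 differences became -1.15 for androgen against vehicle and 1.53 for celastrol against androgen, since averaging adds the KRT8 probe set that did not follow the first. ELF3 passed for the combined treatment against vehicle with quantile, cyclic loess or median normalization (adjusted p of 0.0292 to 0.04885), and CLDN4 for celastrol against androgen with only the compared groups (0.0183). No other cause was tested. Precision is limited by 3 arrays per group, with a median standard error of 0.13 over all genes.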
